A study of Mus musculus with 18 samples.

Results

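Mouse aortas kept in organ culture with 100 nM aldosterone were compared after 2, 4 and 8 h, to describe how the tissue changed over time in the presence of the hormone. These are 9 of the 18 samples of the series, 3 at each time. All animals, those of the vehicle cultures included, were wild-type C57Bl/6 males that had carried a subcutaneous pellet of spironolactone for 5 days (20 mg/kg/day); no age is given. Each sample is the RNA of 3 pooled aortas cultured ex vivo in DMEM, and the 3 samples of a group are separate pools. The 9 vehicle samples, 3 at each of the same times, had the same pretreatment and medium but no hormone. Probe sets were taken where the log2 value exceeded 4 in at least 3 of the 9 aldosterone samples, which kept 11767 of 22626 probe sets other than array controls. Of these, 10348 exceeded 4 in all 9 samples, 239 did so in exactly 3, just inside the limit, and 301 others did so in exactly 2, just outside it. The kept probe sets with a single gene symbol stood for 6855 genes, each read from its brightest probe set.

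Aldosterone is the adrenal steroid that activates the mineralocorticoid receptor, a ligand-controlled transcription factor best known from the kidney and also present in smooth muscle and endothelium. Spironolactone is an antagonist of that receptor, given here before culture to lower its basal activity. An excised vessel has also lost flow, pressure, nerve and blood supply, and dissection itself is known to set off immediate early, stress and cytokine genes. In each of the 9 samples the time with hormone equals the time in culture, so the 2 cannot be told apart within them, and a fresh, uncultured aorta is not analysed here. The values of the vehicle samples over the same interval are therefore given where the text says so.

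The 9 samples fell into 3 well separated groups. Across the 11767 probe sets, correlations were 0.987 to 0.994 within a group, 0.939 to 0.954 between 2 and 4 h, 0.937 to 0.955 between 4 and 8 h and 0.866 to 0.888 between 2 and 8 h. The first principal component held 73.3% of the variance and ran from 2 h through 4 h to 8 h, and the second, with 14.3%, set the 4 h samples apart from both others. As a measure of RNA integrity, the Gapdh array controls at the 3' end exceeded those at the 5' end by a log2 difference of 0.574 to 0.673 at 2 h, 0.462 to 0.746 at 4 h and 0.448 to 0.491 at 8 h. For beta-actin the difference was 1.77 to 1.88 at 2 h, 1.84 to 2.08 at 4 h and 1.72 to 1.82 at 8 h. The 2 h and 8 h groups thus differed without overlap in the first control and overlapped in the second. The 4 h and 8 h groups overlapped in the first and differed without overlap in the second. The part of this in the results was not tested.

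From 2 to 8 h with aldosterone, 4493 of the 6855 genes passed the adjusted threshold of 0.05 (limma, Benjamini-Hochberg over all 11767 probe sets), which is 65.5%. Among the probe sets themselves the share called was 63.7% from 2 to 8 h, 46.2% from 2 to 4 h and 47.5% from 4 to 8 h. Of all genes, 34.1% rose (2337) and 31.5% fell (2156), and these shares are the background for every list below. The 3 samples at 8 h lay entirely above those at 2 h for 2642 genes (38.5%) and entirely below for 2327 (33.9%). Among the called genes, 940 rose and 1012 fell by at least 1 on the log2 scale, and 243 rose and 255 fell by at least 2. In what follows a level is a log2 value, a difference is a log2 difference ± SE of 3 samples against 3, and n = 3 in every group. Values under about 4 lie near the bottom of the array's range. For a gene with a whole group at or under 4, the bright group's mean was set against 4, and the fold is a lower bound. The limit of 4 in at least 3 samples was met through 1 group alone by 79 genes, 44 of them through the 8 h samples and 35 through the 2 h samples. Such genes had to differ: all 44 are among the rises and all 35 among the falls, and no p is given for those named.

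Both parts of the interval held a large share of the change. From 2 to 4 h 49.7% of genes passed the threshold, of which 1522 rose (22.2% of all) and 1887 fell (27.5%). From 4 to 8 h 49.4% passed it, and 1937 rose (28.3%) and 1452 fell (21.2%). Both comparisons use the 4 h samples, so their counts are not independent. The excess of rises after 4 h depends on the scaling: by probe set 3186 rose and 2406 fell as deposited, 2857 and 2712 after another quantile normalization, and 2783 and 2815 with samples centred on their medians. Of the 940 genes that rose by at least 1, the 4 h mean lay between the others in 828, past the 8 h mean in 59 and under the 2 h mean in 53. Of the 1012 that fell by as much, it lay between in 913, past the 8 h mean in 64 and above the 2 h mean in 35. The median share of the change already made at 4 h was 50.8% for the rises and 47.7% for the falls.

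The genes that were bright at 2 h and faded were headed by the immediate early transcription factors, which cells switch on within minutes of a stimulus. Of the 18 measured members of this list, 13 fell and 3 rose, with a median of -1.83, against a median of 0.03 over all 6855 genes. Fosb, an AP-1 subunit, read 11.53, 11.53 and 11.67 at 2 h, 9.39, 9.45 and 9.04 at 4 h and 3.45, 2.84 and 2.88 at 8 h. It was at least 191-fold lower at 8 h (fitted -8.52 ± 0.17, adjusted p = 1.74e-10), and every sample at 8 h was under the level of 4. Its family member Fos read 14.37, 14.49 and 14.60 at 2 h, 12.69, 12.61 and 12.15 at 4 h and 9.65, 9.27 and 9.53 at 8 h. The 3 groups of Fos did not overlap, and the 8 h mean was 32.2-fold below that at 2 h (-5.01 ± 0.14, adjusted p = 1.57e-09). Fos was still far above the level of 4 at 8 h, whereas Fosb was not. The orphan nuclear receptor Nr4a1 read 11.96, 11.76 and 11.85 at 2 h, 9.55, 9.70 and 9.20 at 4 h and 6.79, 6.68 and 6.67 at 8 h, a 35.2-fold fall (-5.14 ± 0.12, adjusted p = 4.83e-10), and Nr4a2, its relative, fell by 3.83 ± 0.11 (adjusted p = 1.57e-09). Atf3, a stress-induced repressor, went from 11.44–11.70 to 7.77–8.00 (-3.71 ± 0.12), Egr1 from 13.71–14.00 to 11.42–11.71 (-2.23 ± 0.10) and Jun from 11.68–11.96 to 9.93–9.97 (-1.90 ± 0.10). Most of the fall of Jun was made by 4 h, when it was at 10.13–10.44.

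The 3 members that rose were Fosl1, Ier3 and Myc. Fosl1, the late AP-1 subunit Fra-1, read 7.65, 7.49 and 8.07 at 2 h, 9.84, 10.17 and 9.68 at 4 h and 10.15, 10.10 and 10.29 at 8 h, and rose by 2.45 ± 0.16 (adjusted p = 3.19e-07). Ier3 rose by 0.80 ± 0.11 and Myc by 0.38 ± 0.11 (adjusted p = 0.0113). Fosl2 gave -0.02 ± 0.23 and Maff 0.21 ± 0.09, neither past the threshold.

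The promoter letters of the falling members are shown because they include the core that cyclic AMP and stress responsive factors of the CREB and ATF family recognise. TGACG was searched on both strands (CGTCA is its reverse) in the 250 bases before the start of each gene, from RefSeq on GRCm38.p6. It was found in 10 of the 14 list members with a window (71.4%), in 32.8% of the 5563 tested genes with one and in 19.8% of all 27018 genes with one. Capitals mark the matches, and each stretch runs from 10 bases before the first match to the base before the start.
Fos, chr12:85473751-85473889, plus strand: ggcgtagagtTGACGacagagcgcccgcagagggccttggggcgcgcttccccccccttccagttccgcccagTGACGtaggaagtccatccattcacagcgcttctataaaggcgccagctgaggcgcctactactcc
Nr4a1, chr15:101266603-101266845, plus strand: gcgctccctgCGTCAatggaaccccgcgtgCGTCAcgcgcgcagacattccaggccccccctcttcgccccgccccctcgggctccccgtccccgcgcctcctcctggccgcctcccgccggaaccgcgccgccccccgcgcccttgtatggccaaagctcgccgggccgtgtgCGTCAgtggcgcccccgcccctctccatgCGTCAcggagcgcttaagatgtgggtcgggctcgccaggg
Fos holds 2 matches and Nr4a1 4. A match describes the letters, not binding.

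The other signalling genes of the early response were mixed. Of 11 genes that restrain MAP kinase signalling, 7 fell and 4 rose, with a median of -0.67. Dusp1, the phosphatase that switches off p38 and JNK, fell from 12.74–13.02 to 10.95–10.99 (-1.92 ± 0.09), whereas Spred1, an inhibitor of Ras signalling, rose from 6.98–7.44 to 8.61–9.05 (1.58 ± 0.17). Of 10 Kruppel-like factors, 7 fell and 0 rose (median -0.84). Klf2, which laminar flow maintains in endothelium, read 9.47, 9.17 and 9.41 at 2 h, 6.63, 6.98 and 5.27 at 4 h and 5.11, 4.95 and 4.89 at 8 h. It was 20.6-fold lower at 8 h than at 2 h (-4.37 ± 0.34, adjusted p = 1.18e-06), with the 4 h samples spread widely between. Klf4 fell by 2.06 ± 0.09, from 12.16–12.24 to 10.01–10.21, and Klf6 gave 0.17 ± 0.09 (adjusted p = 0.124).

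**Figure D1:**
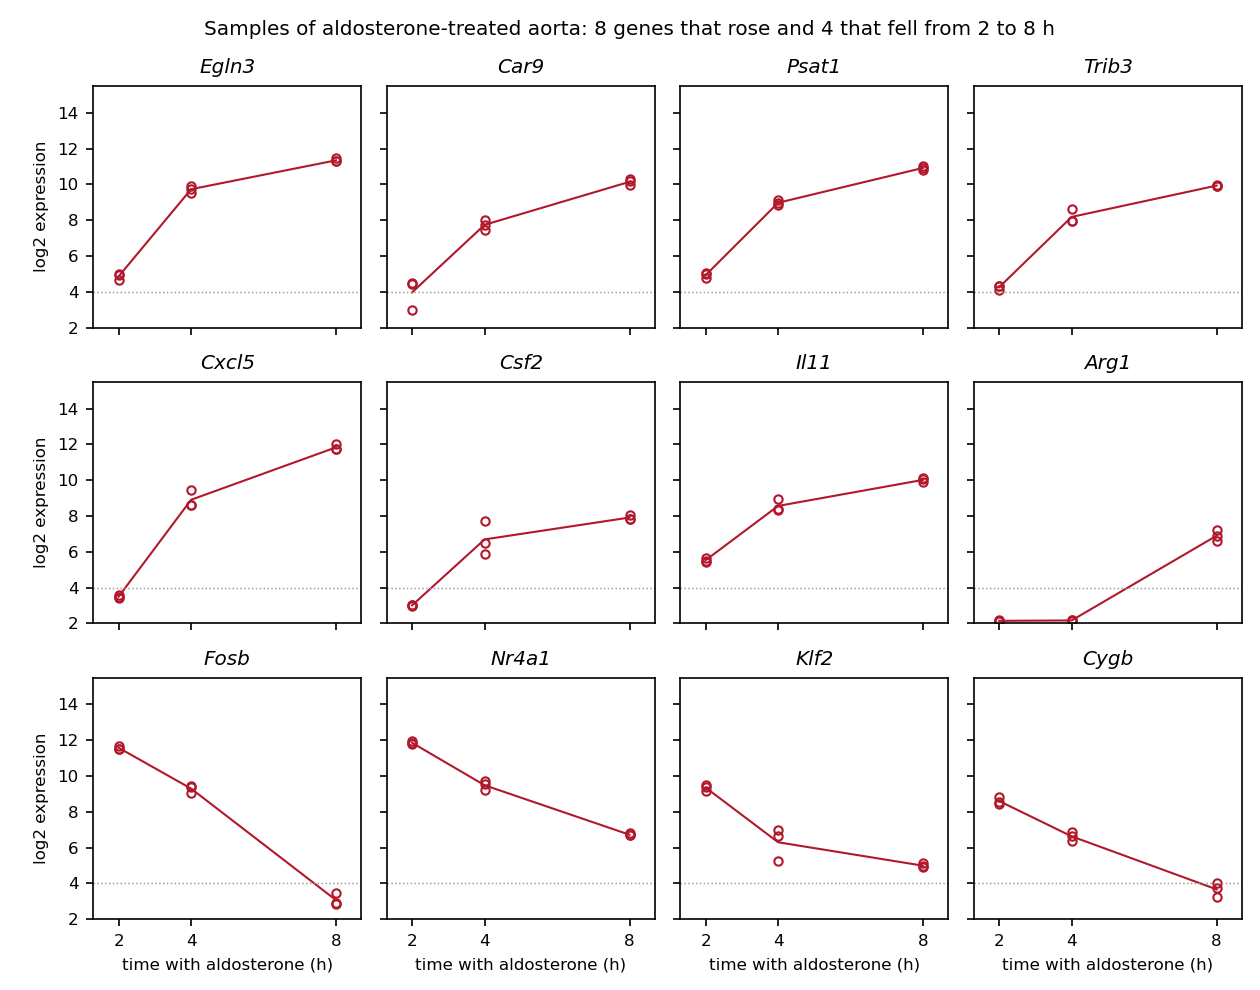
Log2 expression (vertical axis) of 12 genes against time with aldosterone in hours (horizontal axis), with a circle for each sample, a line through the group means and a dotted line at the level of 4. The rows show genes of the low-oxygen and amino acid responses, then inflammatory genes and Arg1, then genes that fell. Fosb and Cygb are at or under the dotted line at 8 h, and Arg1 lies under it until 4 h and above it at 8 h.

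Genes of amino acid supply rose together. ATF4 is the transcription factor made when amino acids run short or the endoplasmic reticulum is stressed, and it drives amino acid transporters, asparagine synthetase, serine synthesis and tRNA synthetases. Of 20 measured genes of this response, 18 rose and 2 fell, with a median of 1.84. Asns, which makes asparagine, read 6.24, 5.35 and 6.24 at 2 h, 8.91, 8.46 and 9.17 at 4 h and 11.40, 11.34 and 11.45 at 8 h. It rose 43.8-fold (5.45 ± 0.23, adjusted p = 1.98e-08), and each group lay wholly above the one before. Trib3, a pseudokinase that damps the ATF4 response, read 4.32, 4.10 and 4.33 at 2 h, 7.95, 7.96 and 8.63 at 4 h and 9.96, 9.91 and 9.92 at 8 h, a 51.3-fold rise (5.68 ± 0.17, adjusted p = 2.35e-09). Slc7a5, the leucine carrier, rose from 5.81–6.34 to 10.61–11.10 (4.75 ± 0.17) and its heavy chain Slc3a2 from 8.75–9.07 to 11.16–11.40 (2.38 ± 0.11).

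Chac1 and Slc7a11 show that members of this list did not share a time course. Chac1, which breaks down glutathione, read 4.56, 4.33 and 3.98 at 2 h, 8.36, 8.38 and 8.60 at 4 h and 8.32, 8.52 and 8.39 at 8 h. Its whole rise was made between 2 and 4 h, at 4.16 ± 0.15 (adjusted p = 6.32e-08), and the change from 4 to 8 h was -0.04 ± 0.15 (adjusted p = 0.863). Slc7a11, the cystine carrier, read 2.42, 2.44 and 2.42 at 2 h, 2.54, 2.47 and 2.54 at 4 h and 6.28, 5.84 and 5.79 at 8 h, so it was at the floor until 4 h and then at least 3.92-fold higher at 8 h, the only group through which it met the limit. Cth, which makes cysteine, was at least 8.71-fold higher at 8 h than at 2 h (fitted 3.70 ± 0.19). Ddit3, the transcription factor CHOP, rose by 2.30 ± 0.14, while Atf4 itself moved by only 0.38 ± 0.11 (adjusted p = 0.0111). The 2 members that fell were Atf3, described above, and the neutral amino acid carrier Slc38a2 (-0.42 ± 0.08).

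Enzymes that make serine and pass its carbon to folate had the highest median of the lists in the plot of gene lists, 3.85 over 8 measured members. Of these, 6 rose and 0 fell. Phgdh, Psat1 and Psph catalyse the steps from a glycolytic intermediate to serine. Psat1 read 4.96, 5.05 and 4.76 at 2 h, 8.97, 8.84 and 9.11 at 4 h and 10.92, 10.83 and 11.02 at 8 h, a 63.9-fold rise (6.00 ± 0.11, adjusted p = 1.37e-10), Phgdh rose from 6.31–7.04 to 10.37–10.59 (3.82 ± 0.17) and Psph from 4.19–4.97 to 8.38–8.63 (3.87 ± 0.19). The 3 groups of Psat1 did not overlap. The mitochondrial enzymes Shmt2 and Mthfd2 rose by 5.51 ± 0.11 and 4.35 ± 0.14. Their cytosolic counterparts Shmt1 (0.41 ± 0.35, adjusted p = 0.337) and Mthfd1 (0.01 ± 0.12, adjusted p = 0.953) did not pass the threshold. Aldh18a1, which starts proline synthesis, rose by 3.36 ± 0.14.

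All 17 measured cytosolic aminoacyl-tRNA synthetases, which load tRNAs with amino acids, rose, with a median of 2.47. Gars, for glycine, went from 8.02–8.20 at 2 h to 9.85–9.86 at 4 h and 11.46–11.52 at 8 h (3.40 ± 0.08, adjusted p = 3.46e-10). Iars, for isoleucine, rose by 3.29 ± 0.11 and Nars, for asparagine, by 3.27 ± 0.13, each without overlap between the groups. Yars, for tyrosine, was at the floor at 2 h and at least 4.67-fold higher at 8 h. The smallest rises were those of Qars (0.29 ± 0.12, adjusted p = 0.0454) and Eprs (0.35 ± 0.12, adjusted p = 0.0286). At 4 h, 12 of the 17 had risen above 2 h and 1 had fallen.

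Promoter letters of Asns, Chac1 and Aars, the alanine synthetase, are printed because they hold the C/EBP-ATF response element through which ATF4 acts. TGATGNAA was searched on both strands in the same windows, and a window can hold more than 1 of the motifs searched. It was found in 6 of 18 genes of the ATF4 list (33.3%), 3 of 11 synthetases (27.3%) and 0 of 8 serine and one-carbon enzymes, against 2.46% of the 5563 tested genes and 3.9% of all 27018. Capitals mark the match, which lies on the opposite strand in Chac1 and Aars.
Asns, chr6:7693210-7693242, minus strand: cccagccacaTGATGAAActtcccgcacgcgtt
Chac1, chr2:119351039-119351241, plus strand: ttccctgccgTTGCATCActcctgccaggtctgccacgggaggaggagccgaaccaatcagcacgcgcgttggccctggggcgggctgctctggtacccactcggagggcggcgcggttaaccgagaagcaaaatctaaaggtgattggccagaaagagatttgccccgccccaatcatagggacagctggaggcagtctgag
Aars, chr8:111033720-111033841, plus strand: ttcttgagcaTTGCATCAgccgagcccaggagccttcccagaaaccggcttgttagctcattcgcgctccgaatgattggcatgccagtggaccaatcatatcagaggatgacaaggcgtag
The match begins 23 bases before the annotated start in Asns, and 193 and 112 bases before it in Chac1 and Aars. Aars itself rose from 7.80–8.01 to 10.30–10.65 (2.58 ± 0.12, adjusted p = 2.82e-08).

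Genes of the low-oxygen response and of glycolysis rose without exception. Hypoxia-inducible factor (HIF) escapes degradation when oxygen is scarce and switches on glucose uptake, glycolysis, pH control and angiogenic signals. All 21 measured members passed the threshold upwards, with a median of 2.42. Egln3, the prolyl hydroxylase that HIF induces and that marks HIF for degradation, read 4.68, 4.92 and 4.96 at 2 h, 9.76, 9.52 and 9.91 at 4 h and 11.30, 11.29 and 11.45 at 8 h. It rose 90.0-fold (6.49 ± 0.12, adjusted p = 1.37e-10), and 4.88 ± 0.12 of this was made by 4 h. Car9, a carbonic anhydrase of hypoxic cells, read 4.50, 4.42 and 2.98 at 2 h, 7.73, 7.47 and 8.02 at 4 h and 9.94, 10.20 and 10.30 at 8 h. Its rise was 72.5-fold (6.18 ± 0.34, adjusted p = 9.39e-08), with 1 of the 3 samples at 2 h well below the other two.

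The glycolytic members followed. Slc2a1, the glucose carrier GLUT1, went from 10.43–10.59 through 12.46–12.62 to 13.45–13.57 (2.98 ± 0.07), Ldha, which makes lactate, from 10.43–10.66 through 11.70–11.94 to 12.90–13.27 (2.50 ± 0.11), and Pfkl, the liver form of phosphofructokinase, by 3.30 ± 0.18. Slc16a3, the lactate exporter, rose from 5.08–5.76 to 9.46–9.76 (4.12 ± 0.18). Bnip3, a receptor for mitochondrial removal, rose 9.11-fold (3.19 ± 0.10), and Vegfa, the main angiogenic factor, from 7.60–8.17 to 10.54–10.69 (2.75 ± 0.13). Hk2 (10.74–11.03, 12.06–12.13 and 11.44–11.60 at the 3 times) and Adm, the vasodilator adrenomedullin (8.15–8.32, 10.17–10.38 and 9.73–9.996), were higher at 4 h than at either end in every sample. Pdk1, which closes the entry of pyruvate to the mitochondria, was late, with 0.25 ± 0.11 by 4 h and 2.02 ± 0.11 after it. The Gapdh and Eno1 genes themselves were not measured here.

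The core of the HIF binding site is shown in 3 of these promoters. ACGTGC, searched on both strands, was found in 9 of 20 list members with a window (45.0%), in 8.57% of the tested genes and in 5.63% of all genes with one. Capitals mark the matches, which in Bnip3 overlap on the 2 strands.
Car9, chr4:43506997-43507025, plus strand: tatttccgatGCACGTacagcccgtccac
Ldha, chr7:46845759-46845803, plus strand: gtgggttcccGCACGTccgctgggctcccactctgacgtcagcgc
Bnip3, chr7:138909507-138909625, minus strand: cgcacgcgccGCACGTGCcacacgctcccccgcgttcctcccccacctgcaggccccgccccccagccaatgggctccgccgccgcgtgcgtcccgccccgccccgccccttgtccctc
Among the 15 largest rises, 5 of 13 windows held these letters (38.5%), and among the 15 largest falls 0 of 14. Egln3 was not among those with a match. In the same windows TGATGNAA was found in 15.4% of the rises and 14.3% of the falls, and TGACG in 38.5% and 42.9%.

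**Figure D2:**
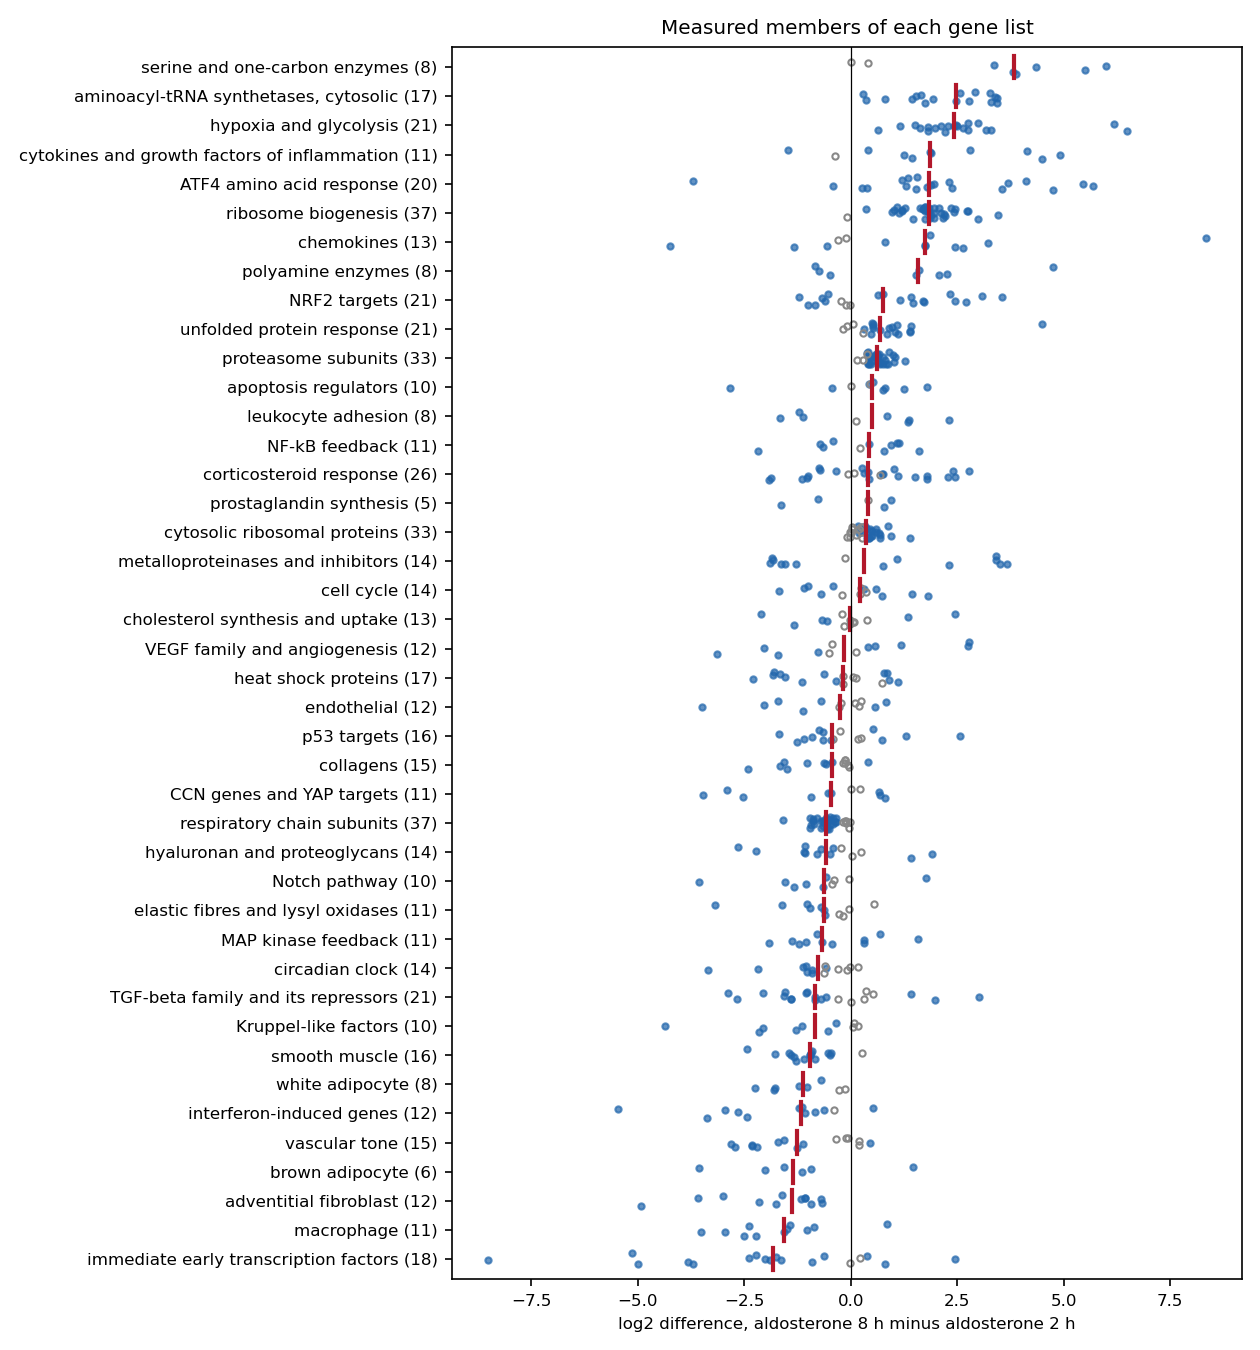
Log2 difference between aldosterone 8 h and 2 h (horizontal axis) of the measured members of each gene list with at least 5 (vertical axis, number measured in brackets), as filled circles where the adjusted p was under 0.05 and open circles where it was not, with a red bar at the list's median. Serine and one-carbon enzymes stand at the top with a median of 3.85 and immediate early transcription factors at the bottom with -1.83; vertical offsets within a list carry no value.

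Inflammatory mediators rose while interferon-driven genes fell. Chemokines draw leukocytes into tissue, and of 13 measured ones 8 rose and 3 fell (median 1.73). Cxcl5, which attracts neutrophils, read 3.41, 3.59 and 3.46 at 2 h, 9.48, 8.61 and 8.63 at 4 h and 12.03, 11.76 and 11.72 at 8 h. It was at least 228-fold higher at 8 h than at 2 h (fitted 8.35 ± 0.20, adjusted p = 5.46e-10); the 3 groups did not overlap. Cxcl1 and Cxcl2, which act on the same receptor, were already bright at 2 h, at 12.34–12.65 and 10.37–10.74, and rose by 1.85 ± 0.13 and 2.63 ± 0.18. Ccl2, the monocyte attractant, rose from 8.07–8.51 to 11.53–11.64 (3.22 ± 0.22, adjusted p = 4.67e-07), with most of the change by 4 h (2.63 ± 0.22).

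The chemokines that fell were Cxcl10, Cxcl9 and Cxcl12, the last with a dimmer probe set that was called upwards (1.66, adjusted p = 0.00017). Cxcl10, which interferons induce and which draws T cells, read 9.80, 9.55 and 9.94 at 2 h, 9.23, 9.20 and 8.37 at 4 h and 5.80, 5.79 and 4.95 at 8 h, a 19.1-fold fall (-4.25 ± 0.27, adjusted p = 2.39e-07) that lay mostly after 4 h (-3.42 ± 0.27). Cxcl9 read 8.05, 7.61 and 8.4 at 2 h, 8.96, 9.59 and 8.50 at 4 h and 6.82, 6.27 and 6.96 at 8 h, so its 4 h samples were the highest of the 3 groups. The wider interferon list had the same late course: of 12 measured genes 1 rose and 2 fell from 2 to 4 h (median 0.13), and 0 rose and 11 fell from 4 to 8 h (median -1.30). Over the full interval 10 fell and 1 rose, with a median of -1.18. Ifit1, an antiviral RNA-binding protein, read 7.42, 7.60 and 8.11 at 2 h, 6.25, 7.36 and 5.46 at 4 h and 2.33, 2.12 and 2.26 at 8 h, so that it was at least 13.1-fold lower at 8 h (fitted -5.48 ± 0.38, adjusted p = 4.84e-07). Irf1, a transcription factor of this response, fell from 10.04–10.52 to 7.51–7.86 (-2.66 ± 0.18), and Gbp6, an interferon-induced GTPase outside the list, fell by 3.24 ± 0.28 after 4 h.

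Of 11 cytokines and their signalling partners, 9 rose and 1 fell (median 1.85). Csf2, the growth factor GM-CSF, read 3.0, 3.04 and 2.97 at 2 h, 7.70, 6.47 and 5.90 at 4 h and 7.81, 7.85 and 8.08 at 8 h. It was at least 15.1-fold higher at 8 h (fitted 4.91 ± 0.35, adjusted p = 5.68e-07), and the 4 h samples spread over a range wider than that of either other group. Il11, a fibrogenic cytokine of the IL-6 family, read 5.45, 5.50 and 5.63 at 2 h, 8.96, 8.33 and 8.4 at 4 h and 10.11, 10.06 and 9.88 at 8 h and rose 22.5-fold (4.49 ± 0.16, adjusted p = 5.63e-09). Lif, of the same family, rose by 4.13 ± 0.17, with 3.60 ± 0.17 of it by 4 h. Il33, an alarm signal of stromal cells, rose by 2.80 ± 0.25, Il1r1, the interleukin 1 receptor, by 1.89 ± 0.13 and Il6, already at 12.72–12.76 at 2 h, by 1.24 ± 0.13. Socs3, which shuts off IL-6 signalling, fell from 13.24–13.36 to 11.68–11.98 (-1.48 ± 0.10), and Il1b gave -0.37 ± 0.40 (adjusted p = 0.442). Among other genes that came up from the floor, Serpinb2, a plasminogen activator inhibitor, read 2.61, 2.97 and 3.92 at 2 h, 7.38, 4.02 and 6.70 at 4 h and 8.74, 8.91 and 8.77 at 8 h and was at least 27.9-fold higher at 8 h. Its 4 h samples were spread widely and lay between the other groups. Clec4d, a lectin receptor of myeloid cells, was at least 11.7-fold higher.

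Genes around NF-kB and leukocyte adhesion moved both ways. Of 11 NF-kB feedback genes, 6 rose and 4 fell (median 0.42). Nfkb2, counted as a fall (-0.66), had a dimmer probe set called upwards (1.14, adjusted p = 0.000144). Zfp36, which destabilises cytokine mRNAs, fell from 11.25–11.37 to 9.05–9.19 (-2.18 ± 0.11) and Nfkbia, the main inhibitor, fell by 0.73 ± 0.10, whereas Tnip1 rose by 1.61 ± 0.11 and Relb by 1.09 ± 0.15. Of 8 adhesion genes, 4 rose and 3 fell. The endothelial selectin Sele rose from 4.57–5.72 to 7.09–7.47 (2.30 ± 0.27) and Vcam1 by 1.38 ± 0.17, while Icam1 fell from 8.88–9.56 to 7.86–8.11 (-1.21 ± 0.19, adjusted p = 0.000213). Of 5 prostaglandin genes, Ptgs2, the inducible cyclooxygenase, rose by 0.95 ± 0.15 and Ptgis, which makes prostacyclin, fell by 0.78 ± 0.10.

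More matrix genes fell than rose. Of 15 measured collagens, 8 fell and 1 rose (median -0.44). Col1a2 fell from 13.20–13.51 to 11.68–11.78 (-1.65 ± 0.09), Col3a1 fell by 1.56 ± 0.13 and Col14a1 fell by 2.41 ± 0.14. Col6a3 alone in the list rose, by 0.40 ± 0.07. Of 11 elastic fibre and lysyl oxidase genes, 7 fell and 0 rose (median -0.64). Eln, which encodes elastin, read 11.53, 11.40 and 11.51 at 2 h, 10.12, 10.72 and 10.54 at 4 h and 8.26, 8.62 and 8.02 at 8 h. Its groups did not overlap, and the fall was 9.07-fold (-3.18 ± 0.17, adjusted p = 7.20e-08). Fbln5, which assembles elastic fibres, fell by 1.62 ± 0.09, while the cross-linking enzymes Lox (-0.19 ± 0.09) and Loxl1 (-0.05 ± 0.11) did not pass the threshold. Of 14 proteoglycan and hyaluronan genes, 9 fell and 2 rose (median -0.58). Vcan, counted as a fall (-0.42), had a dimmer probe set called upwards (0.49, adjusted p = 0.00463). Ogn, a small proteoglycan, fell from 12.49–12.68 to 9.82–10.13 (-2.65 ± 0.09), and Cd44, the hyaluronan receptor, rose from 10.71–10.98 to 12.67–12.83 (1.91 ± 0.09).

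Of 14 metalloproteinases, inhibitors and plasminogen activation genes, 7 rose and 6 fell. Mmp3, stromelysin 1, read 8.89, 9.56 and 9.01 at 2 h, 10.94, 10.53 and 10.25 at 4 h and 12.63, 12.71 and 12.66 at 8 h, an 11.4-fold rise (3.51 ± 0.19, adjusted p = 8.18e-08) with no overlap between the groups. Mmp13, an interstitial collagenase, read 3.45, 3.72 and 3.67 at 2 h, 5.03, 3.55 and 3.37 at 4 h and 7.23, 6.72 and 7.14 at 8 h. It was at or near the floor in 5 of the 6 samples at 2 and 4 h and at least 8.16-fold higher at 8 h than at 2 h (fitted 3.42 ± 0.36). Adam19, a membrane protease, rose by 3.67 ± 0.19, mostly before 4 h (2.98 ± 0.19). The inhibitors divided: Timp1 rose from 5.89–6.24 to 9.32–9.56 (3.42 ± 0.29), whereas Timp2 (-1.85 ± 0.10), Timp3 (-1.29 ± 0.09) and Timp4 (-1.90 ± 0.33) fell. Mmp2, a gelatinase, fell by 1.54 ± 0.23.

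Growth factor signalling of the wall shifted as well. Of 21 genes of the TGF-beta family and its repressors, 13 fell and 3 rose (median -0.83). Of the ligands, Tgfb2 fell by 2.06 ± 0.17 and Tgfb3 fell by 2.88 ± 0.21. Id2, a target of the BMP branch, fell from 11.80–11.83 to 9.03–9.28 (-2.66 ± 0.12). Inhba, the activin A subunit, rose from 7.40–8.07 to 10.56–10.97 (3.02 ± 0.16). Sost, the Wnt inhibitor sclerostin, read 10.74, 10.01 and 10.47 at 2 h, 9.09, 9.79 and 9.51 at 4 h and 5.59, 5.70 and 5.86 at 8 h, a 25.8-fold fall (-4.69 ± 0.20, adjusted p = 1.97e-08) most of which followed 4 h (-3.75 ± 0.20). Of 11 CCN genes and YAP targets, 6 fell and 3 rose (median -0.46). Ccn1, a matricellular protein that stretch induces, fell from 11.90–12.37 through 9.82–10.23 to 8.59–8.92 (-3.47 ± 0.15), while Ccn2, connective tissue growth factor, went from 14.28–14.39 through 14.36–14.56 to 13.79–13.93 (-0.46 ± 0.07, adjusted p = 0.000207).

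Genes that set vascular tone mostly fell. Of 15 measured, 9 fell and 1 rose (median -1.26). Edn1, the vasoconstrictor endothelin 1, fell from 7.77–8.23 to 4.78–5.81 (-2.72 ± 0.26). Of the nitric oxide receptor subunits, Gucy1b1 fell by 2.31 ± 0.11 and Gucy1a1 fell by 1.57 ± 0.18. Rgs2, which limits vasoconstrictor signals, fell by 2.33 ± 0.14, and Npr1, the natriuretic peptide receptor, was at least 2.84-fold lower at 8 h. Nos3, the endothelial nitric oxide synthase, gave 0.19 ± 0.22 (adjusted p = 0.487). Npy1r, a receptor for the nerve transmitter neuropeptide Y, read 7.94, 7.42 and 7.39 at 2 h, 6.11, 6.36 and 5.08 at 4 h and 3.21, 2.40 and 3.49 at 8 h and was at least 12-fold lower at 8 h. Of 12 VEGF and angiogenesis genes, 5 rose and 4 fell: the ligand Pgf rose by 2.77 ± 0.46 and Angpt2 by 1.17 ± 0.17, while Vegfd (-3.14 ± 0.17) and the receptor Kdr (-2.03 ± 0.24) fell. Of 10 Notch pathway genes, 6 fell and 1 rose (median -0.62), with Heyl, a smooth muscle target of Notch3, going from 7.57–8.13 to 4.12–4.38 (-3.55 ± 0.16) and Rbpj, the pathway's DNA-binding protein, rising by 1.76 ± 0.13.

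Markers of the wall's cell types moved over the same interval. Smooth muscle genes were bright at every time, Acta2 at 14.86–14.94 at 2 h and 13.80–14.06 at 8 h, as the label of the tissue has it. Of 16 measured, 15 fell and 0 rose (median -0.96), and their summed linear signal was 107400 to 115900 at 2 h, 76250 to 95500 at 4 h and 49410 to 57790 at 8 h. Cnn1, calponin, fell from 11.53–11.79 to 8.92–9.46 (-2.43 ± 0.15), Myh11, smooth muscle myosin, fell by 1.28 ± 0.13, and Myocd, the coactivator of this programme, fell by 1.77 ± 0.15. Pdlim3, a muscle scaffold protein outside the list, read 9.92, 9.63 and 9.67 at 2 h, 8.35, 9.04 and 8.87 at 4 h and 5.75, 5.80 and 5.28 at 8 h and fell 17.5-fold (-4.13 ± 0.19). Smtn, smoothelin, gave 0.27 ± 0.14 (adjusted p = 0.12). In bulk tissue, fewer cells of a type and less RNA per cell cannot be told apart.

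All 12 measured markers of adventitial fibroblasts fell (median -1.39), with summed signals of 32390 to 37210 at 2 h, 25710 to 34800 at 4 h and 17190 to 21430 at 8 h. Cygb, the oxygen-binding cytoglobin, read 8.43, 8.83 and 8.54 at 2 h, 6.89, 6.63 and 6.35 at 4 h and 4.00, 3.24 and 3.74 at 8 h. It was at least 24.2-fold lower at 8 h (fitted -4.94 ± 0.21, adjusted p = 1.97e-08), and all of its groups were apart. Cd34 fell by 3.58 ± 0.33, Scara5 fell by 3.0 ± 0.21 and Pdgfra fell by 1.06 ± 0.19, although a dimmer probe set of Pdgfra was called upwards (0.48, adjusted p = 0.0202). Of 11 macrophage markers, 10 fell and 1 rose (median -1.58), with sums of 2677 to 3202, 1383 to 1978 and 1079 to 1289 at the 3 times. The complement gene C1qa was at least 5.92-fold lower at 8 h, Csf1r, the receptor on which macrophages depend, fell from 8.65–9.29 to 5.66–6.16 (-2.95 ± 0.23), and Cd14 rose by 0.86 ± 0.13.

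Of 12 endothelial markers, 5 fell and 2 rose (median -0.25), and their sums were 2506 to 3204, 1552 to 1842 and 1639 to 2145. Ptprb, the vascular endothelial phosphatase, read 9.41, 9.24 and 9.31 at 2 h, 7.88, 7.84 and 7.08 at 4 h and 6.40, 5.49 and 5.56 at 8 h and fell 11.4-fold (-3.51 ± 0.26, adjusted p = 7.15e-07). Cdh5, endothelial cadherin, rose by 0.82 ± 0.17 and Pecam1 fell by 1.11 ± 0.22, so the list had no common direction. Markers of fat, which lies around the aorta, were measured: 6 of 8 white adipocyte markers and 5 of 6 brown adipocyte markers fell, with sums of 23650 to 28530 and 5385 to 7464 at 2 h against 16050 to 18990 and 3189 to 3993 at 8 h. Ucp1, the uncoupling protein of brown fat, read 10.42, 10.78 and 10.99 at 2 h, 8.92, 6.28 and 6.78 at 4 h and 9.67, 8.96 and 8.84 at 8 h, so its 4 h samples were lowest on average (-1.57 at 8 h against 2 h, adjusted p = 0.0237, and 0.0592 to 0.0799 without 2 h replicate 2 or 3 or 8 h replicate 2 or 3). Ppargc1a, which drives mitochondrial genes, was at least 4.27-fold lower at 8 h and met the limit through the 2 h samples alone, and Dio2, which activates thyroid hormone, rose by 1.46 ± 0.20. Thrsp, a lipogenic gene outside the lists, read 10.81, 10.78 and 10.95 at 2 h, 9.63, 8.75 and 7.49 at 4 h and 7.53, 7.09 and 6.53 at 8 h, with a wide spread at 4 h.

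Blood and other cells were little in evidence. No lymphocyte (0 of 10 on the array) or mast cell marker (0 of 7) met the limit, and S100a9 was the only one of 7 neutrophil markers on the array to do so, at 3.68–4.12, 3.92–6.37 and 3.0–3.69 at the 3 times. Of the red blood cell genes, Alas2 fell by 1.96 ± 0.57 and Slc4a1 fell by 1.33 ± 0.29; without aldosterone 2 h replicate 3 or 8 h replicate 3 the difference of Alas2 was -1.60 or -1.66 and no longer past the threshold. Actc1 and Tnnt2, of striated muscle, differed most in 1 library: aldosterone 8 h replicate 3 gave 6.71 and 7.40, and the other two 8 h samples at most 4.77 and 5.38. The differences from 2 to 8 h were 0.12 and 0.35, not past the threshold. Without that library they were -0.61 for Actc1, past the threshold (adjusted p = 0.0124), and -0.37 for Tnnt2 (adjusted p = 0.329). Of 2 measured nerve and Schwann cell markers 1 rose and 1 fell. The only measured mesothelial marker, Krt18, rose by 2.62 ± 0.14. The part of these marker genes in the falls and rises of the other lists was not tested.

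Genes for building ribosomes rose early, and those for proteasomes late. Of 37 factors that make ribosomes, 35 rose from 2 to 4 h and 36 from 2 to 8 h, with medians of 1.33 and 1.83, and 0 fell in either. Rrp12, an export factor of ribosomal subunits, went from 3.62–4.14 through 5.4–6.02 to 7.17–7.5 (3.45 ± 0.20), and Ncl, nucleolin, from 11.001–11.12 through 11.92–12.15 to 12.62–12.81 (1.62 ± 0.08). Of 33 proteasome subunits, 10 rose and 2 fell by 4 h (median 0.09), and 30 rose and 0 fell by 8 h (median 0.61). Psmd14, the deubiquitinase of the lid, was at 8.28–8.62, 8.51–8.81 and 9.66–9.88 at the 3 times (1.27 ± 0.12, adjusted p = 5.75e-06). The ribosomal proteins themselves moved little: of 33 measured, 3 had risen by 4 h and 22 by 8 h, with a median of 0.35, and 0 fell.

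Subunits of the respiratory chain took another course. All 37 measured ones fell from 2 to 4 h (median -0.72), and from 4 to 8 h 10 rose and 3 fell (median 0.13), so that 31 were lower at 8 h than at 2 h (median -0.57). Of the 37, 13 met 2 conditions together. Every 4 h sample lay below the other 6 samples, and 4 h was past the threshold against the mean of 2 and 8 h. The first condition alone held for 8.33% of all genes (571). Ndufv2, of complex I, read 10.30, 10.39 and 10.33 at 2 h, 9.48, 9.37 and 9.58 at 4 h and 9.89, 10.004 and 9.89 at 8 h. Uqcrc1, of complex III, read 7.82, 7.72 and 8.29 at 2 h, 6.95, 7.19 and 6.94 at 4 h and 7.59, 7.88 and 8.04 at 8 h, and its 8 h samples overlapped those at 2 h (-0.11 ± 0.17, adjusted p = 0.597). Ndufb3 kept falling, from 9.98–10.01 through 8.83–8.94 to 8.38–8.43 (-1.59 ± 0.08).

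**Figure D3:**
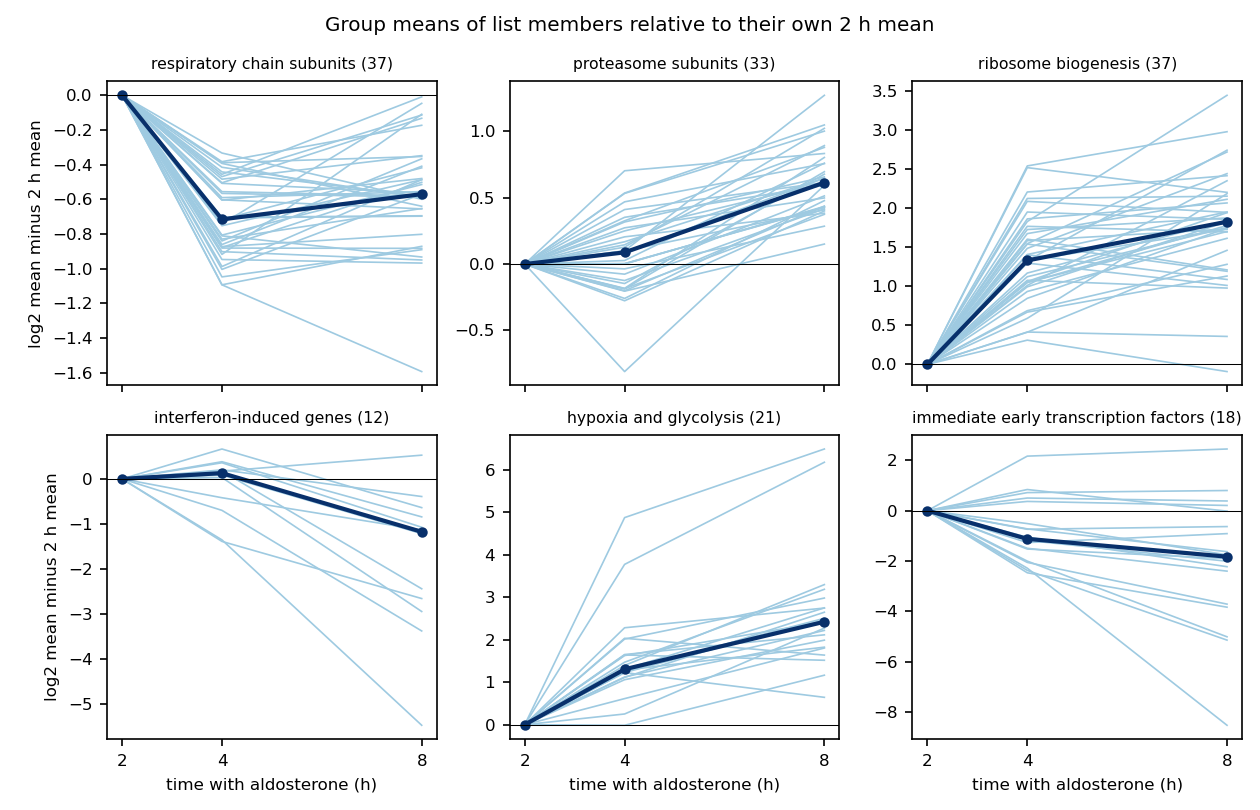
Group means of the members of 6 gene lists relative to their own mean at 2 h (vertical axes, log2, differing between panels) against time with aldosterone in hours (horizontal axes), with a thin line for each gene, a thick line for the median and the number of genes in brackets. Respiratory chain subunits drop to a median of -0.72 at 4 h and stand at -0.57 at 8 h, ribosome biogenesis has made 1.33 of its 1.83 by 4 h, and proteasome subunits and interferon-induced genes move mainly after 4 h.

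Other stress responses had smaller medians than the ATF4 list. Of 21 genes of the unfolded protein response, 17 rose and 0 fell (median 0.69). Hspa5, the chaperone BiP, rose from 13.11–13.59 to 14.37–14.60 (1.09 ± 0.13) and Herpud1 by 1.41 ± 0.22, while Ero1a, an oxidase of the endoplasmic reticulum that low oxygen also induces, read 8.36, 8.42 and 8.35 at 2 h, 10.81, 10.38 and 10.90 at 4 h and 12.86, 12.86 and 12.90 at 8 h, a 22.5-fold rise (4.49 ± 0.12, adjusted p = 8.57e-10). Of 17 heat shock genes, 8 fell and 4 rose (median -0.19). Hspa4, counted as a rise (0.77), had a dimmer probe set called downwards (-0.64, adjusted p = 0.003). Hspa1a, the inducible HSP70, fell by 2.30 ± 0.22 and its near-identical copy Hspa1b fell by 1.54 ± 0.22, which the probes may not tell apart, and Cryab, a small heat shock protein, rose by 1.11 ± 0.08. Of 21 targets of NRF2, the regulator of antioxidant defence, 12 rose and 6 fell (median 0.75). Hmox1, heme oxygenase 1, rose from 8.42–9.19 to 11.73–11.88 (3.08 ± 0.20), Gclm, for glutathione synthesis, by 2.33 ± 0.12, and Nqo1 read 5.6, 5.38 and 5.37 at 2 h, 5.44, 5.42 and 5.44 at 4 h and 8.33, 8.06 and 8.06 at 8 h, rising only after 4 h. Cat, catalase, fell by 1.0 ± 0.15.

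Polyamine genes rose more often than they fell and clock genes fell. Of 8 polyamine genes, 5 rose and 3 fell (median 1.57). Arg1, arginase 1, which supplies ornithine, read 2.16, 2.14 and 2.12 at 2 h, 2.17, 2.14 and 2.16 at 4 h and 7.22, 6.88 and 6.59 at 8 h. It was at the floor in all 6 samples up to 4 h and at least 7.45-fold higher at 8 h, the only group through which it met the limit. Odc1, the first enzyme of polyamine synthesis, rose steadily, from 9.98–10.09 through 11.17–11.30 to 12.02–12.20 (2.06 ± 0.08), and its inhibitor Oaz1 fell by 0.48 ± 0.06. Of 14 clock genes, 8 fell and 0 rose (median -0.77). Usp2, a rhythmic deubiquitinase, fell from 7.66–8.23 to 4.31–4.81 (-3.34 ± 0.18), and Hlf, a clock output factor, fell by 2.19 ± 0.25. The repressor Cry2 fell by 1.11 ± 0.12 and Per1 fell by 1.03 ± 0.15, while Clock gave -0.10 ± 0.12 and Cry1 -0.01 ± 0.15.

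The remaining lists were divided. Of 16 p53 targets, 8 fell and 4 rose (median -0.44): Sesn1, which restrains mTOR, fell by 1.69 ± 0.22 and Cdkn1a, the p21 inhibitor, rose by 0.74 ± 0.10. Of 14 cell cycle genes, 5 rose and 5 fell. The replication gene Mcm7 rose by 1.80 ± 0.14 and the cyclin Ccnd1 fell by 1.09 ± 0.17. Of 10 apoptosis regulators, 6 rose and 2 fell, with the survival gene Cflar up by 1.79 ± 0.09 and the death inducer Bcl2l11 lower (-2.85 ± 0.26). Of 13 cholesterol genes, 2 rose and 4 fell (median -0.03).

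Single genes outside these lists made some of the largest moves. Stc1, the glycoprotein hormone stanniocalcin 1, read 5.31, 4.84 and 4.77 at 2 h, 5.70, 6.16 and 6.25 at 4 h and 9.58, 9.18 and 9.32 at 8 h, a 20.9-fold rise (4.39 ± 0.19, adjusted p = 2.15e-08) made mainly after 4 h. Pvt1, a noncoding RNA beside Myc, read 3.22, 1.70 and 2.07 at 2 h, 7.15, 7.06 and 6.90 at 4 h and 7.39, 7.24 and 7.63 at 8 h, at least 10.7-fold higher at 8 h, and its rise was complete by 4 h (4 to 8 h: 0.38 ± 0.31, adjusted p = 0.339). Rin1, Peak1 and Prkca, which act in Ras, cytoskeletal and protein kinase C signalling, were at or under 4 in every 2 h sample and at least 10.5-fold, 9.53-fold and 9.18-fold higher at 8 h.

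Among the falls, Abca8a, a lipid transporter, read 9.65, 10.09 and 9.54 at 2 h, 8.77, 8.41 and 8.26 at 4 h and 5.05, 4.94 and 4.88 at 8 h and fell 27.9-fold (-4.80 ± 0.17, adjusted p = 5.63e-09). Xirp1, an actin-binding protein of muscle, read 8.97, 8.95 and 9.46 at 2 h, 9.48, 9.63 and 8.97 at 4 h and 4.14, 4.17 and 5.12 at 8 h, so it held its level to 4 h (0.24 ± 0.27, adjusted p = 0.506) and then fell by 4.88 ± 0.27. Cavin2, a coat protein of caveolae, fell 13.4-fold (-3.74 ± 0.14), Hip1, an endocytic adaptor, 14.6-fold (-3.87 ± 0.20), Klhl13, an adaptor of ubiquitin ligases, 15.6-fold (-3.97 ± 0.14), and Inmt, a methyltransferase of amines, 19.6-fold (-4.29 ± 0.21). Fgf13, an intracellular regulator of sodium channels, fell by 3.73 ± 0.20. Unc5c, a netrin receptor, Rian, an imprinted noncoding RNA, and Hacd4, an enzyme of fatty acid elongation, ended at or under 4 in all 8 h samples, at least 11.7-fold, 10.3-fold and 9.78-fold lower. Rian had made most of its fall by 4 h (-3.01 ± 0.18), as had Pck1, which feeds glyceride synthesis in fat (-3.42 ± 0.34 by 4 h and 0.08 ± 0.34 after), and Rasd1, a steroid-induced Ras relative (-2.88 ± 0.22 and -0.58 ± 0.22).

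At 4 h some genes stood above or below both other times. The contrast of 4 h with the mean of 2 and 8 h was past the threshold for 33.8% of genes (2319; 31.5% of probe sets), 15% higher (1028) and 18.8% lower (1291). Which direction was more frequent turned with the scaling: by probe set 1712 were higher and 1993 lower as deposited, 1947 and 1835 after another quantile normalization, and 2005 and 1763 with samples centred. All 3 samples at 4 h lay above the other 6 for 6.21% (426) and below them for 8.33% (571). Foxc2, a forkhead factor of vessel development, read 9.88, 10.12 and 10.10 at 2 h, 11.40, 11.38 and 11.38 at 4 h and 9.82, 9.87 and 9.64 at 8 h. Its 4 h mean was 1.48 ± 0.08 above the mean of the others (adjusted p = 1.39e-05), with 3 nearly equal samples. Mpp7, a scaffold of cell polarity, read 6.64, 6.6 and 6.59 at 2 h, 8.23, 8.96 and 9.03 at 4 h and 6.67, 6.87 and 6.64 at 8 h (2.07 ± 0.16, adjusted p = 3.59e-05). Cdt1, which licenses DNA replication, read 5.82, 5.49 and 5.65 at 2 h, 7.01, 7.28 and 6.67 at 4 h and 4.69, 4.85 and 5.37 at 8 h (1.68 ± 0.18). The other genes chosen by the same rule were Baiap2l1 (2.28 ± 0.23), Ippk (1.43 ± 0.19), Klhl21 (1.26 ± 0.11), Bcar1 (1.17 ± 0.08) and Ccn4 (1.08 ± 0.31, adjusted p = 0.0238), the last with 1 sample well above the other two. Without that sample, 4 h replicate 1, the value of Ccn4 was 0.65 (adjusted p = 0.0933), and without 8 h replicate 3 it was 0.97 (adjusted p = 0.0506).

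The genes lowest at 4 h included Selenbp1, a selenium-binding protein, which read 7.0, 7.24 and 7.07 at 2 h, 5.85, 5.59 and 4.97 at 4 h and 7.08, 7.13 and 7.93 at 8 h (-1.77 ± 0.22, adjusted p = 0.000432). Tmem230, a protein of vesicle traffic, read 8.24, 8.28 and 8.44 at 2 h, 6.54, 7.13 and 7.10 at 4 h and 8.21, 8.17 and 8.06 at 8 h (-1.31 ± 0.13, adjusted p = 0.000153). At 8 h the samples of Selenbp1 overlapped those at 2 h and those of Tmem230 lay just under them. Pld1, phospholipase D1, gave -1.51 ± 0.18, but 2 other probe sets of the gene differed by -0.17 and -0.38 between 4 and 2 h where this one differed by -1.39 ± 0.21. Pcmtd2 (-1.38 ± 0.22), Coro1b, which acts on actin (-1.48 ± 0.22), and Asnsd1 (-1.46 ± 0.30) followed. Wdfy2 and the kinase gene Lrrk1 were at or under 4 in all 4 h samples and at least 1.46-fold and 2.01-fold higher at 8 h, both dim throughout.

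The cultures without hormone changed largely in the same directions. No sample is shared between the 2 arms. Over the 6855 genes, the difference from 2 to 8 h with aldosterone and that in vehicle had a Pearson correlation of 0.949 across genes, which are not independent replicates, and 98% of the 4493 called genes had the same sign in vehicle. Median absolute differences were 0.57 with aldosterone and 0.59 in vehicle. Vehicle 2 h replicate 1 stood apart from its group, with correlations of 0.952 to 0.953 to its 2 group mates against 0.983 to 0.994 for all other pairs within groups, and without it the values were 0.951 and 98.4%. The vehicle differences of genes named above were 5.83 for Egln3, 6.33 for Psat1 and -2.05 for Eln, beside 6.49, 6.00 and -3.18 with hormone. The adjusted p of the difference between the arms was 0.686, 0.869 and 0.402 for these genes in turn, which does not show that they were equal. Fosb at 8 h was under 4 on average in both arms, and Cxcl5 reached 11.43–11.72 at 8 h in vehicle. List medians in vehicle were 4.14 for serine and one-carbon enzymes, 2.10 for the ATF4 list, 2.32 for hypoxia and glycolysis, 1.75 for ribosome biogenesis, -0.46 for the respiratory chain and -2.08 for immediate early factors.

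**Figure D4:**
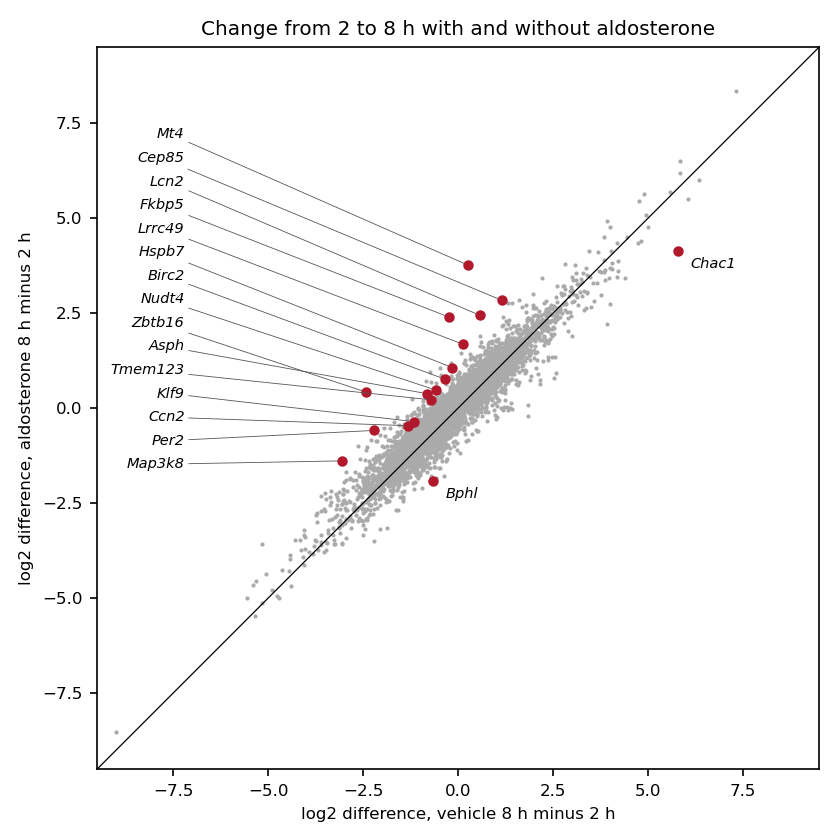
Log2 difference from 2 to 8 h with aldosterone (vertical axis) against the same difference in vehicle (horizontal axis) for 6855 genes, with the line of equal change. Red points are the 17 genes whose 2 differences differed past the adjusted threshold, 15 above the line and 2 below it, and the grey points follow the line with r = 0.949.

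The change over time differed between the arms for 17 genes, 0.248% of those tested (0.272% of probe sets), 15 higher with aldosterone (0.219%) and 2 lower (0.0292%). At an unadjusted p under 0.05 there were 542 of the 6855 genes. A share of 0.05 of the tests is expected under that level without any difference, so 542 is not a count of genes that differed. Without vehicle 2 h replicate 1 the count past the adjusted threshold was 21. By probe set 29 were higher and 3 lower (32 in all), against 25 and 7 with no filter, 30 and 9 without vehicle 2 h replicate 1 and 82 and 25 with array weights; the filter itself used the aldosterone samples alone. The 32 became 20 without aldosterone 2 h replicate 1, 20 without aldosterone 8 h replicate 2 and 21 without aldosterone 8 h replicate 1. The corticosteroid response list, genes that this family of hormones is known to induce, held 5 of the 17 among its 26 measured members, and over the interval itself 15 of the 26 rose and 8 fell (median 0.41, and -0.15 in vehicle). The list was chosen with results of these data known, so this count is not independent evidence.

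Fkbp5, a co-chaperone of steroid receptors, read 6.84, 6.95 and 6.84 at 2 h, 8.05, 7.80 and 7.81 at 4 h and 9.23, 9.43 and 9.15 at 8 h with aldosterone and 7.51, 5.88 and 6.73 at 2 h, 5.89, 6.16 and 5.92 at 4 h and 6.48, 6.53 and 6.40 at 8 h in vehicle. It rose 5.24-fold with hormone (2.39 ± 0.11, adjusted p = 2.93e-08), the vehicle change was -0.24, and the difference between the changes was 2.63 ± 0.37 (adjusted p = 0.00169; 2.23 ± 0.25 and 0.000229 without vehicle 2 h replicate 1). Zbtb16, the transcription factor PLZF, read 8.77, 8.65 and 8.48 at 2 h, 9.74, 9.55 and 9.73 at 4 h and 9.05, 9.21 and 8.89 at 8 h with aldosterone and 8.52, 8.53 and 8.91 at 2 h, 7.58, 7.72 and 8.34 at 4 h and 6.25, 6.49 and 5.96 at 8 h in vehicle. With hormone it was highest at 4 h (0.83 ± 0.10) and at 8 h only 0.42 ± 0.11 above 2 h (adjusted p = 0.00675), while in vehicle it changed by -2.42, so that the arms differed by 2.84 ± 0.26 (adjusted p = 1.13e-05). A second, dimmer probe set of Zbtb16 gave a difference between the arms of 2.13 (adjusted p = 0.0667).

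Mt4, a metallothionein, read 2.87, 2.92 and 2.89 at 2 h, 3.28, 2.91 and 2.96 at 4 h and 6.55, 6.73 and 6.68 at 8 h with aldosterone, at the floor until 4 h and at least 6.30-fold higher at 8 h, the only group through which it met the limit. In vehicle every sample of Mt4 stayed under 4 (3.44, 2.95 and 2.89 at 2 h, 2.98, 2.93 and 2.97 at 4 h and 3.78, 2.88 and 3.39 at 8 h). Lcn2, lipocalin 2, also came up late, at 3.19–3.80, 3.33–3.71 and 5.62–6.13 at the 3 times with hormone, against 3.34–4.14 in vehicle at 8 h, and was at least 3.67-fold higher at 8 h than at 2 h. It too met the limit through the 8 h samples alone. Both left the floor after 4 h, whereas Fkbp5 had risen by 1.01 ± 0.11 and Zbtb16 by 1.04 ± 0.11 at 4 h. Lrrc49 came up from the floor to only 4.26–4.73, at least 1.47-fold.

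The clock gene Per2, Klf9 and Ccn2 were lower at 8 h than at 2 h in both arms, and less so with hormone. Ccn2 changed by -0.46 ± 0.07 with aldosterone and -1.33 in vehicle (difference 0.87 ± 0.12, adjusted p = 0.0014). Per2 read 8.21, 8.39 and 7.99 at 2 h, 8.49, 8.33 and 8.25 at 4 h and 7.64, 7.96 and 7.21 at 8 h with hormone and 8.47, 7.75 and 7.90 at 2 h, 7.90, 7.62 and 7.5 at 4 h and 5.44, 5.90 and 6.09 at 8 h in vehicle, a difference of 1.64 ± 0.31 (adjusted p = 0.0308). Klf9, a Kruppel-like factor that glucocorticoids induce, changed by -0.36 ± 0.09 and -1.17 (difference 0.81 ± 0.16, adjusted p = 0.0465, and 0.0616 without vehicle 2 h replicate 1). Other probe sets of Klf9 gave differences of 0.85 and 0.93, past the threshold (adjusted p = 0.00237 and 0.0357). Further ones gave 0.74, 0.83 and 1.51, not past it (adjusted p = 0.0658, 0.511 and 0.663). Asph, a hydroxylase of the endoplasmic reticulum, Nudt4, a phosphatase of inositol pyrophosphates, and Tmem123 gave differences between the arms of 1.21 ± 0.18, 1.07 ± 0.16 and 0.92 ± 0.17. The other 3 probe sets of Asph gave 0.86, 1.15 and 0.38, none past the threshold (adjusted p = 0.284, 0.599 and 0.857). The call of Tmem123 was lost on leaving out any of 6 libraries (each at 2 h with hormone, 8 h replicates 1 and 2 with hormone, or vehicle 8 h replicate 2), with values of 0.85 to 0.94. Birc2, an inhibitor of apoptosis, rose by 0.76 ± 0.11 with hormone and changed by -0.35 without. Of these genes, the calls of Per2, Klf9 and Birc2 were lost on leaving out any of 6, 9 and 10 of the 12 libraries of the 4 groups, one at a time.

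Chac1 rose less with hormone in the fit, by a size that rests on values near the floor. It rose in both arms, by 4.12 ± 0.15 with aldosterone and 5.78 in vehicle, and the arms stood apart at 2 h, at 3.98–4.56 and 2.89–2.93, more than at 8 h, at 8.32–8.52 and 8.67–8.7. All 3 vehicle samples at 2 h were under the level of 4. The fitted difference between the changes was -1.66 ± 0.21 (adjusted p = 0.00067), and -0.57 with the vehicle mean at 2 h set to 4.

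Other classical targets fell in the presence of the hormone. Sgk1, a kinase that controls sodium channels, read 12.76, 12.50 and 12.73 at 2 h, 12.15, 12.30 and 12.12 at 4 h and 11.72, 11.65 and 11.60 at 8 h (-1.0 ± 0.09, adjusted p = 2.32e-06), Tsc22d3, the leucine zipper GILZ, fell by 1.88 ± 0.17 and Per1 fell by 1.03 ± 0.15. In vehicle the changes were -1.76, -2.84 and -1.96, and the differences between the arms, 0.75 ± 0.24, 0.97 ± 0.37 and 0.93 ± 0.36, were not past the threshold (adjusted p = 0.344, 0.52 and 0.541). This does not show that the arms were equal. The metallothioneins Mt1 and Mt2 rose with hormone by 1.79 ± 0.14 and 1.52 ± 0.11, and in vehicle by 1.55 and 1.33. Neither difference between the arms was past the threshold, which again does not show equality. A dimmer probe set of Mt1 rose by only 0.57 with hormone (adjusted p = 0.00414).

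**Figure D5:**
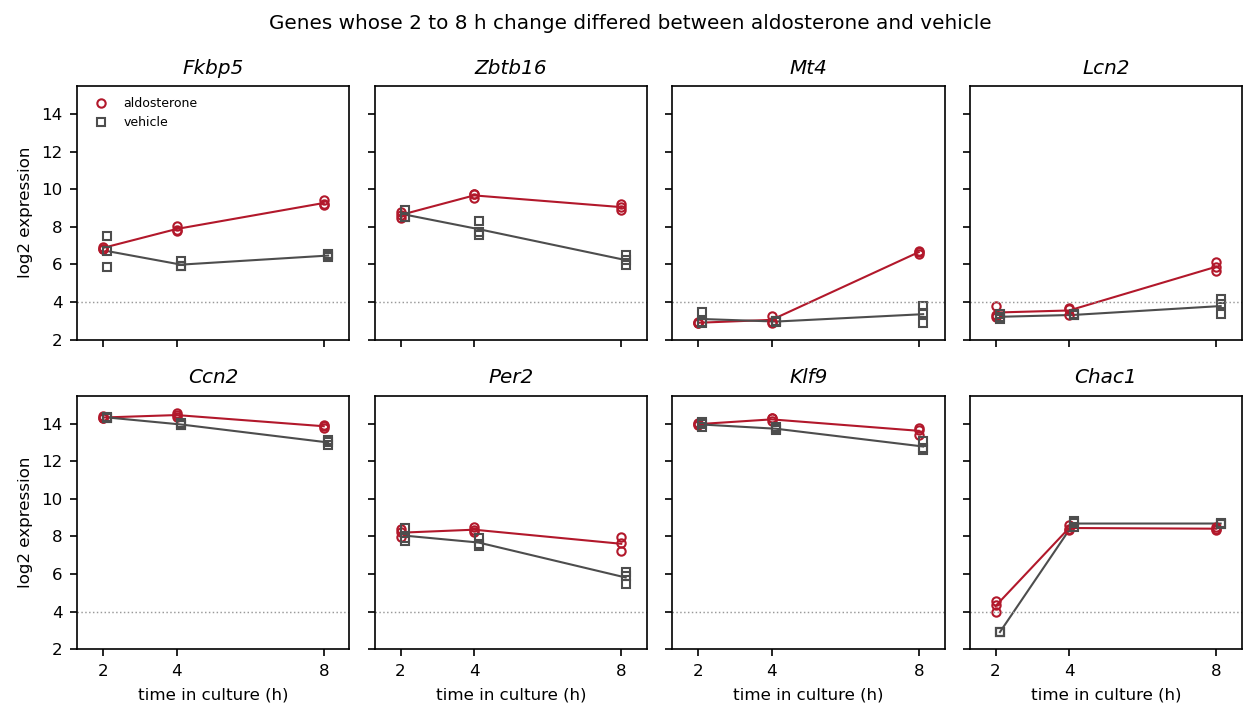
Log2 expression (vertical axis) of 8 genes whose change from 2 to 8 h differed between the arms, against time in culture in hours (horizontal axis), with circles for aldosterone samples, squares for vehicle samples (drawn slightly to the right), lines through the group means and a dotted line at the level of 4. Mt4 and Lcn2 exceed 5 only with aldosterone at 8 h, Fkbp5 and Zbtb16 part from 4 h on, and the arms of Chac1 are near or under the dotted line at 2 h.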

How the data were processed

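The study measured gene expression in 18 samples of mouse aorta with 1-colour Affymetrix arrays, 3 samples in each of 6 groups. The authors deposited log2 values normalized with GCRMA, per the submitters' processing notes, whose version is not given in the sources used here. GCRMA subtracts background by probe sequence and quantile-normalizes the arrays, which presses undetected probe sets to a floor. Array controls (64 of 22690 probe sets) were left out. Of the others, 20380 carried 1 gene symbol in the platform annotation, of which 20351 were matched by gene ID to RefSeq, GRCm38.p6. The 11767 probe sets over the level of 4 in at least 3 of the 9 aldosterone samples were fitted together with limma 3.58.1 in R 4.3.3, with a mean for each group and a variance prior following intensity. P-values were two-sided and adjusted by Benjamini-Hochberg over all 11767, and 0.05 was the threshold. The residual df was 6 and the median within-group SD 0.18. The difference between the arms was fitted on all 18 samples. The fit was tested on simulated data. There the test of the difference between the arms recovered 4.48% of differences of 0.5, 43.3% of those of 1 and 90.9% of those of 2. The simulation changed 67, 67 and 66 probe sets by these sizes and called 97, whereas the data gave 32. The adjusted threshold is harder to pass where fewer probe sets differ, so recovery in the data may be lower. Genes not past the threshold in the test of the difference between the arms may therefore still differ.

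The number of arrays limits the precision. The labels call the samples pooled biological replicates and give no further origin, so p-values measure the spread between pools. No pair of samples held identical values.

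Genes were named as the largest changes in each direction with groups that did not overlap, the brightest genes of those at or under 4 in a whole group, the widest gaps at 4 h, the smallest p of the difference between the arms, and members of lists. Members and lists were chosen with earlier results of these data known. Other filters, normalizations, gene summaries, weights, sample sets and a replicate term were tried.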

Additional observations from a re-analysis of the deposited data

Results flagged for a closer look

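The change from 2 to 8 h differed between the aldosterone and vehicle arms in 17 genes, by the test of the difference itself in limma (adjusted over all 11767 probe sets). Each value here is the change with aldosterone minus that in vehicle, ± SE, with 3 samples in each of the 4 groups. Among the genes whose 4 group means were all above 4, Zbtb16 gave 2.84 ± 0.26 (adjusted p = 1.13e-05), Fkbp5 2.63 ± 0.37 (adjusted p = 0.00169) and Map3k8, a kinase of inflammatory signalling, 1.67 ± 0.31. Map3k8 changed by -1.39 with hormone and -3.06 in vehicle. Per2 gave 1.64 ± 0.31. Hspb7, a small heat shock protein, gave 1.22 ± 0.24, Asph 1.21 ± 0.18, Birc2 1.10 ± 0.23 and Nudt4 1.07 ± 0.16. The smallest were Tmem123 with 0.92 ± 0.17, Ccn2 with 0.87 ± 0.12 and Klf9 with 0.81 ± 0.16. The adjusted p of those given without one ranged from 0.0014 for Ccn2 to 0.0489 for Birc2.

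The other 6 had group means under 4, where the fitted value is not a measured size, and a value with those means set to 4, a choice made after seeing the data, is given after it. Mt4 gave 3.50 ± 0.27 as fitted and 2.65 with the level, Lcn2 1.87 ± 0.29 and 1.88, Cep85, a centrosome protein, 1.69 ± 0.32 and 1.49, and Lrrc49 1.56 ± 0.22 and 0.55. In the other direction Chac1 gave -1.66 ± 0.21 and -0.57, and Bphl, a hydrolase, -1.28 ± 0.26 and -0.77. Mt4, Lcn2, Cep85 and Lrrc49 met the limit of the filter through the aldosterone 8 h samples alone and Bphl through the aldosterone 2 h samples alone.

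Without vehicle 2 h replicate 1, which stood apart from its group, Cep85 (1.62), Hspb7 (1.11), Klf9 (0.76) and Bphl (-1.26) were no longer past the threshold (adjusted p = 0.0555 for Hspb7 and 0.0616 for Klf9). The other 13 were. Over the 12 fits that leave out 1 library each, 9 of the 17 genes were past the threshold in every one. The others were lost in 6 fits for Tmem123 and Per2, 7 for Map3k8, 8 for Cep85, 9 for Klf9 and 10 for Hspb7, Bphl and Birc2. Mt4, Lcn2 and Lrrc49, among the 9, met the limit of the filter through the aldosterone 8 h samples alone. Their place in that count is not independent support.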

How the results depend on the processing

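By probe set, 7490 were called from 2 to 8 h, 5441 from 2 to 4 h, 5592 from 4 to 8 h, 3705 for 4 h against the mean of both ends and 32 for the difference between the arms. Without one sample at a time these were 6901 to 7067, 4677 to 5092, 4750 to 5093, 2746 to 3466 and 20 to 39; the last was 20 without aldosterone 2 h replicate 1 or 8 h replicate 2 and 21 without aldosterone 8 h replicate 1. Tests on 6855 genes in place of 11767 probe sets gave 4518, 3462, 3432, 2417 and 14 with the brightest probe set and 4571, 3484, 3455, 2454 and 14 with probe sets averaged by gene. A log2 difference of at least 1 as well left 3194, 1315, 1417 and 282 of the first 4 counts. With all 18 samples in the fit the 4 h contrast called 2211, and with array weights the difference between the arms called 107; the causes were not tested. The replicate numbers did not pair the samples (correlations of same-numbered deviations from -0.118 to 0.213), and with a replicate block the counts were 7433, 5327, 5486, 3594 and 25. Of 300 values of named genes, 19 lost or gained a call or turned. Actc1 turned to -0.274 with array weights and lay between -0.609 and 0.620 without one sample at a time, and Tnnt2 between -0.368 and 0.773, both lowest without aldosterone 8 h replicate 3. Zbtb16 from 2 to 8 h missed the threshold with its probe sets averaged (0.32) and with all 18 samples (adjusted p = 0.0653). For the difference between the arms, probe sets averaged by gene lost the calls of Asph (0.90), Hspb7 (0.984), Klf9 (0.945), Tmem123 (0.73) and Bphl (-1.28). Samples centred on their medians lost Ccn2 (0.76), and also Birc2, Klf9, Cep85 and Bphl. Of 21 settings tried for each, 16 lost Birc2, 15 Klf9 and 14 Hspb7. Bphl was lost in 16 of 20 and Cep85 in 12 of 20. Centring also moved the share of rises among calls from 53.3% to 50%. In 86 of 4811 genes with a called probe set, probe sets were called in opposite directions. Levels near the floor limit what can be said of dim genes.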
